A study of Mus musculus with 4 samples.

Results

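The genes described here are 9 endothelial genes of blood clotting, clot lysis and flow sensing, namely Thbd, Procr, Tfpi, F3, Vwf, Plat, Plaur, Klf2 and Klf4. They were taken by exact match of the gene symbol from the 31253 genes of the deposited count matrices, and every symbol was found once. Their unique molecular identifier (UMI) counts, each UMI standing for 1 captured mRNA molecule, were summed per library over endothelial cells (ECs) of 4 classes. The cells came from the left ventricle of mice and were sorted for red fluorescent protein (RFP), the tdTomato reporter of the R26-stop-tdTomato allele. A tamoxifen-inducible Cre under the Cdh5 promoter switches this reporter on in ECs, and the same Cre deletes exon 2 of floxed Scarb1 (SR-B1). The 2 NC libraries came from mice on chow with 10% of its energy as fat and plain drinking water. The 2 HFpEF libraries came from mice on a high-fat diet with 60% of its energy as fat plus 0.5 mg/ml of the nitric oxide synthase inhibitor L-NAME in the water, a model of heart failure with preserved ejection fraction. Both regimens lasted 20 weeks on the C57BL/6N background.

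The study bred mice with both Scarb1 alleles floxed (Sfl/fl/RΔEC) and mice with 1 floxed allele (Sfl/+/RΔEC) on each diet, but the labels of the libraries give the diet and not the genotype, the age or the number of mice. The paper's single-cell comparison had 4 groups, made of 2 genotypes on each diet, and the series holds 4 libraries. The 2 libraries of a diet can therefore differ in genotype, and may not be replicates of 1 condition. The spread between them, and each SE or SD below, can hold a genotype difference as well as variation between mice. Scarb1 itself measured 109.5 CPM (UMIs per 1000000 UMIs of the same cells) in NC library 1, 45.4 in NC library 2, 111.1 in HFpEF library 1 and 51.1 in HFpEF library 2. From its single-cell data the paper reported less Scarb1 in capillary ECs of double-floxed than of single-floxed mice on each diet. No genotype was assigned to a library here, since the labels do not name it.

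Of 41843 deposited cells, 40154 had more than 200 genes and less than 20% mitochondrial UMIs, and these were kept. The 4 libraries held 5454 to 20882 such cells with a median of 1619 to 4127 UMIs, the HFpEF libraries being the shallower. Clusters gated by marker genes gave 25793 capillary ECs, 4119 artery ECs and 1954 vein ECs. A further cluster of 193 cells was gated as endocardial by Npr3 and related genes, but the vein marker Cpe and the fibroblast marker Dcn also led it, so it is called cluster 14 here. Its fibroblast markers summed to 2549 to 4564 CPM, against 6.63 to 8.84 CPM in capillary ECs. Another 5763 cells, led by hemoglobin-related, platelet or cardiomyocyte genes, were left without a class. None of the 9 genes served as a gate marker or as a clustering gene, so the classes were not drawn by their own levels.

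Clotting on a vessel wall starts when tissue factor (F3) binds factor VII, and it is checked by tissue factor pathway inhibitor (Tfpi) and by thrombomodulin (Thbd), which turns thrombin into an activator of protein C. The protein C receptor (Procr) presents protein C to that complex. Von Willebrand factor (Vwf), stored in Weibel-Palade bodies, tethers platelets. Tissue plasminogen activator (Plat) starts fibrin lysis, and the urokinase receptor (Plaur) gathers plasminogen activation at the cell surface. Klf2 and Klf4 are zinc-finger transcription factors that laminar flow induces through the ERK5 kinase and Mef2, and Thbd is among the genes they are known to raise.

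The promoters of Plaur, Klf2 and Klf4 are shown because the first belongs to the gene with the largest diet difference in capillary, artery and vein ECs and the others to the transcription factors of the group. Each is the 250 bases before the RefSeq start on GRCm38.p6, 5′ to 3′ on the strand of the gene. Capitals mark the letters CACCC on either strand (a Klf motif), CTA and TAG with 4 bases of any kind between them (Mef2) or TGANTCA (AP-1). The Plaur window lies at chr7:24462233-24462482 on the + strand, the Klf2 window at chr8:72318812-72319061 on the + strand and the Klf4 window at chr4:55532476-55532725 on the - strand.
Plaur: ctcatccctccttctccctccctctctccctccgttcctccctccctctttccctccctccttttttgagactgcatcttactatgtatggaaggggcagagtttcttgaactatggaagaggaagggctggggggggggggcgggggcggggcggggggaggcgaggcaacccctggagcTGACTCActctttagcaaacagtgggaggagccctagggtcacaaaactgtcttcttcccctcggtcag
Klf2: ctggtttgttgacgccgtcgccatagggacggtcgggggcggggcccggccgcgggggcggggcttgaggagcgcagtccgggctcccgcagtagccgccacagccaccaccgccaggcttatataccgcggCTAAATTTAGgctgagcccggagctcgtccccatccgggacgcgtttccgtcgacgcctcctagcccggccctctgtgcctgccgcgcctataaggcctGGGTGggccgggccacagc
Klf4: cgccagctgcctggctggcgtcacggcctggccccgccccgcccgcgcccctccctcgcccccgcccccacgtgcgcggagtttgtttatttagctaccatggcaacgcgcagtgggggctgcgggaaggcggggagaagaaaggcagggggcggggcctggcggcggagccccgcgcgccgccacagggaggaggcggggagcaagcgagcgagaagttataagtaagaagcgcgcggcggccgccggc
The Plaur window held the AP-1 letters TGACTCA 69 bases before the start, and 6.75% of 32851 RefSeq promoter windows of the same length held such a match. The Klf2 window held the Mef2 letters CTAAATTTAG 118 bases before the start, which 3.20% of windows matched, and GGGTG 19 bases before it, a match found in 52.0% of windows. The GENCODE start of Klf2, at 72319033, lies inside this window, and the GGGTG letters fall after it. The Klf4 window held none of the 3. Windows were also found for Tfpi, Procr and F3. Of the 6 genes, Procr, F3 and Plaur had an AP-1 match and Klf2 alone a Mef2 match. A match describes letters in a window and says nothing of binding.

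Across the diets, Plaur was the gene of the group whose HFpEF libraries stood clearest of the NC libraries. It measured about 2-fold more in HFpEF in capillary, artery and vein ECs, and in vein ECs it rose past the threshold of an adjusted p under 0.05. The differences were tested with edgeR's quasi-likelihood test on the summed counts, with Benjamini-Hochberg adjustment over all genes tested in the class. Of the 9 genes 8 could be tested in each class, F3 having too few UMIs. The test called 1 of them in vein ECs, where it called 0.868% of 9447 genes. It called 0 in capillary ECs, 0 in artery ECs and 0 in cluster 14, where it called 0.00812%, 0.472% and 0.0206% of all genes. At an unadjusted p under 0.05 the edgeR counts were 3 in capillary ECs, 3 in artery ECs, 2 in vein ECs and 1 in cluster 14, and DESeq2 called 1, 1, 0 and 0. Each of the DESeq2 calls was Plaur. DESeq2 gave an adjusted p to 10169 genes in capillary ECs, 4230 in artery ECs, 4685 in vein ECs and 4864 in cluster 14. Of these it called 2.08%, 0.946%, 0.491% and 0.103%. In capillary, artery and vein ECs these are fewer genes than edgeR tested, so the shares of the tools have different bases. The unadjusted threshold took in 18% of all genes in capillary ECs, 13.7% in artery ECs, 11.7% in vein ECs and 6.66% in cluster 14.

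**Figure D1:**
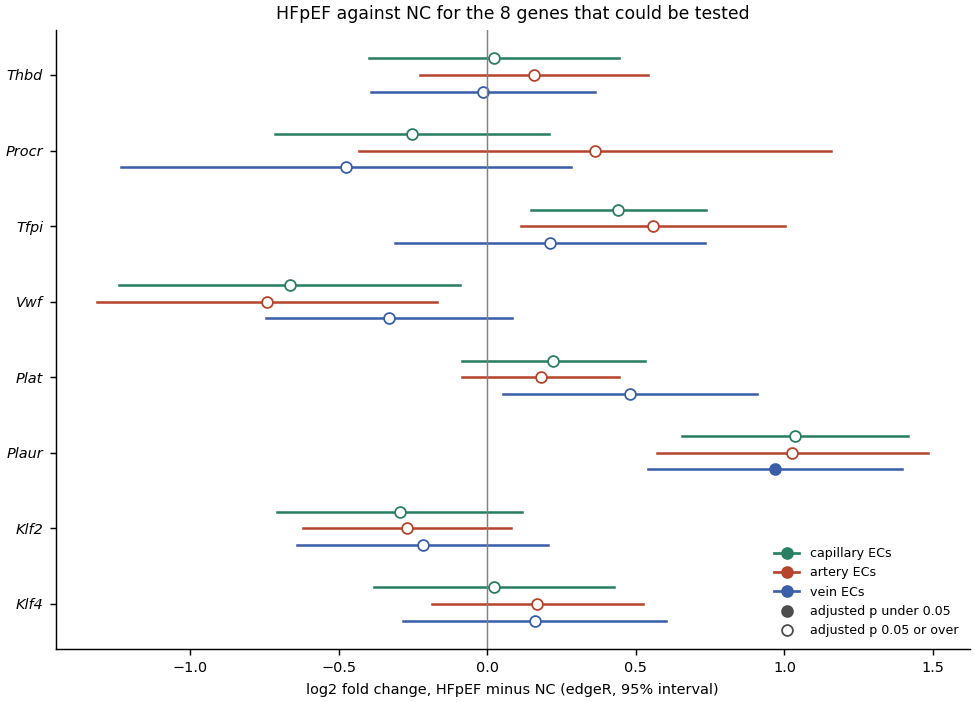
Fitted log2 fold change, HFpEF minus NC, of the 8 tested genes in capillary, artery and vein ECs, with 95% intervals from edgeR over 2 libraries per diet. Values right of 0 are higher in HFpEF and a filled point marks an adjusted p under 0.05. Plaur sits near 1 in each class and is filled in vein ECs alone, and Klf2 and Vwf sit left of 0 in each.

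The libraries of the diets did not overlap for 4 of the 9 genes in capillary ECs, 6 in artery ECs, 3 in vein ECs, 3 in cluster 14 and 4 over the 4 classes together. With 2 libraries against 2, that is common, being the case for 49.4%, 45.3%, 42.6%, 37.9% and 50.7% of all genes tested. The median log2 difference over the 8 tested genes was 0.02 in capillary ECs, 0.17 in artery ECs and 0.07 in vein ECs, beside medians within 0.01 of 0 over all genes. With 2 libraries per diet a permutation of the libraries cannot give a two-sided p below 0.333, and nothing in the labels says that the libraries come from separate mice. The p-values therefore measure no variation beyond these libraries. They rest on the spread between them, which edgeR moderates for each gene with that of the other genes, and which can hold a genotype difference. A fit with the library number as a block is given in the part on processing.

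**Figure D2:**
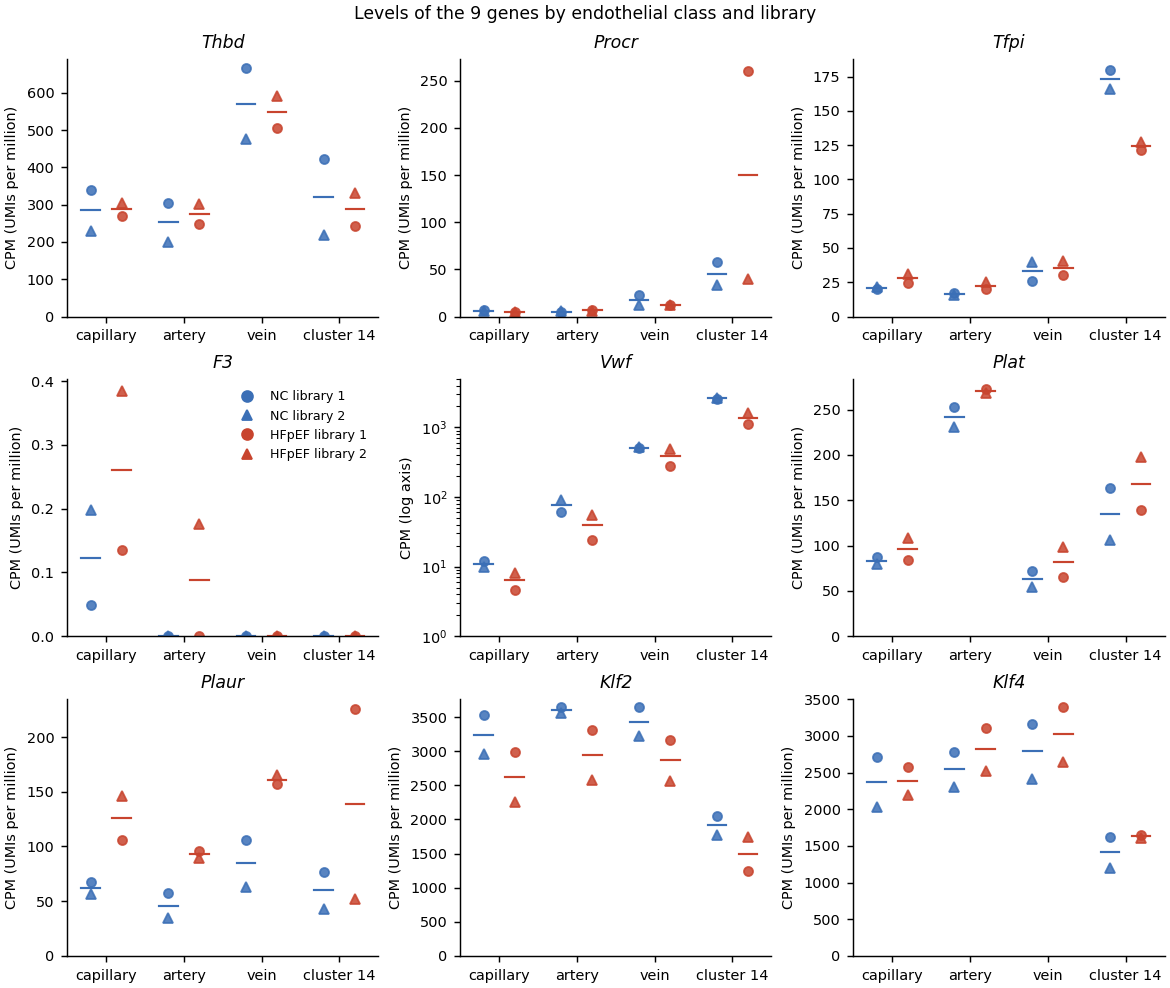
Level of each of the 9 genes in CPM (UMIs per 1000000 UMIs of the class) in capillary, artery and vein ECs and in cluster 14, with 1 point per library, circles for library 1 and triangles for library 2, blue for NC and red for HFpEF, and a dash at the mean of a diet. The Vwf axis is logarithmic. Plaur lies higher in both HFpEF libraries in capillary, artery and vein ECs, and Vwf climbs from capillary ECs to cluster 14 in all 4 libraries.

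Thbd, the thrombin receptor that redirects thrombin from clotting to protein C activation, is a gene of 1 exon at chr2:148404466-148408188 on the - strand of GRCm38. In vein ECs it measured 667.2 and 475.4 CPM (NC) against 505.3 and 591.4 CPM (HFpEF). In capillary ECs it measured 340.1 and 229.5 CPM under NC against 269.6 and 305.4 CPM under HFpEF. Both HFpEF libraries lay between the NC libraries in either class, so the diets overlapped. Artery ECs gave 304.0 and 201.0 CPM under NC against 247.7 and 302.8 CPM under HFpEF, again with both HFpEF values inside the NC range. The fitted log2 difference, HFpEF minus NC, was 0.02 ± 0.18 (SE, n = 2 libraries per diet) in capillary ECs, with a 95% interval of -0.40 to 0.44 and an adjusted p of 0.963. Vein and artery ECs gave -0.01 ± 0.18 and 0.16 ± 0.18, and in each of the 3 classes the sign turned in at least 1 other setting. Between classes, the Thbd level was higher in vein ECs than in each other class in 4 of 4 libraries, at 559.8 ± 86.8 CPM (SD, n = 4) against 286.1 ± 47.5 in capillary ECs, 263.9 ± 49.5 in artery ECs and 304.2 ± 92.8 in cluster 14. The SDs of the last 3 overlap, but within libraries Thbd was lower in artery than in capillary ECs in 4 of 4, at a mean log2 ratio of -0.12 ± 0.08 (SD). Cluster 14 measured 423.4 and 219.5 CPM under NC against 242.9 and 331.1 CPM under HFpEF, which overlapped, and its log2 difference was -0.17 ± 0.35 (SE, adjusted p 0.960). Cells with at least 1000 UMIs were thinned to 1000 UMIs each, and shallower cells were left out. After that, 40.4% of 1840 vein ECs held a Thbd UMI (95% exact binomial interval 38.2 to 42.7%), against 23.8% of 23770 capillary ECs (23.2 to 24.3%). Without thinning the shares were 71.1% and 44.9%, at median depths of 3055.5 and 2412 UMIs. Of cells outside the EC classes, neutrophil-gated cells, with a median of 3708 UMIs before thinning, held a Thbd UMI in 11% of 317 cells (7.81 to 15%), and fibroblast-gated cells, with a median of 3526, in 14.4% of 118. Both shares are below those of the EC classes named. Such intervals cover counting error only, here and below.

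Procr, the endothelial protein C receptor, lies at chr2:155751117-155755471 on the + strand with 4 exons. Its counts were low, at 38 to 165 UMIs per library in capillary ECs, where it measured 6.85 and 5.67 CPM under NC against 5.14 and 5.28 CPM under HFpEF. Both HFpEF libraries were below both NC libraries there. In artery ECs the order was the other way, with 4.31 and 5.65 CPM under NC against 6.57 and 6.33 CPM under HFpEF, on 7 to 36 UMIs per library. In vein ECs it measured 22.8 and 12 CPM under NC against 11.7 and 12.6 CPM under HFpEF, which overlapped. The log2 differences of -0.25 ± 0.20, 0.36 ± 0.37 and -0.48 ± 0.36 (SE) had adjusted p of 0.532, 0.714 and 0.640. Procr was highest in cluster 14 in 4 of 4 libraries, at 57.7 and 33.3 CPM under NC against 260.3 and 39.5 CPM under HFpEF. The value of 260.3 CPM rests on 15 UMIs in the 17 cells of HFpEF library 1, and without that library the log2 difference in cluster 14 turned from 0.84 to -0.27.

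Tfpi, the inhibitor of the tissue factor and factor VII complex, lies at chr2:84432855-84476775 on the - strand with 10 exons. In capillary ECs it measured 20.4 and 21.3 CPM under NC against 24.6 and 30.9 CPM under HFpEF. Artery ECs gave 17.0 and 15.7 CPM under NC against 19.7 and 25.5 CPM under HFpEF. Both HFpEF libraries were above both NC libraries in these classes, with HFpEF library 2 the highest. The log2 difference was 0.44 ± 0.13 (SE) in capillary ECs and 0.56 ± 0.20 in artery ECs, and neither passed the threshold, the adjusted p being 0.163 and 0.264. Without HFpEF library 2 the differences were 0.27 and 0.31. In vein ECs the libraries overlapped, at 26.0 and 39.9 CPM under NC against 30.1 and 40.4 CPM under HFpEF. Cluster 14 had the highest Tfpi level in 4 of 4 libraries, with 179.6 and 166.3 CPM under NC against 121.5 and 127.6 CPM under HFpEF. There both HFpEF libraries were below both NC libraries, with a log2 difference of -0.53 ± 0.32 and an adjusted p of 0.802.

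F3, tissue factor, the initiator of clotting, lies at chr3:121723537-121735048 on the + strand with 6 exons and was barely detected in ECs. Capillary ECs held 1 and 4 F3 UMIs under NC against 1 and 12 under HFpEF, in 18 of 25793 cells. After thinning to 1000 UMIs, 5 of 23770 capillary ECs held one (0.0210%, exact interval 0.00683 to 0.0491%). Artery ECs held 1 UMI in all, and vein ECs and cluster 14 held 0. A count of 0 in vein ECs allows up to 3 UMIs per library, or 1.02 to 5.02 CPM, so a lower level was not detectable at this depth. F3 did not pass the filter on low counts in any class. Without that filter its capillary log2 difference was 1.32 ± 0.93 (SE, edgeR adjusted p 0.583), on the 18 UMIs given above.

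Vwf, the platelet-tethering multimer, lies at chr6:125546774-125686679 on the + strand with 52 exons and was the gene of the group that separated the vessel classes most. Its level was 8.65 ± 3.09 CPM (SD, n = 4) in capillary ECs, 58.3 ± 27.5 in artery ECs, 451.0 ± 113.7 in vein ECs and 1993 ± 757 in cluster 14, and this order held in 4 of 4 libraries. The mean log2 ratio of capillary to vein ECs within a library was -5.57 ± 0.20 (SD, n = 4). After thinning, 24.3% of vein ECs held a Vwf UMI (22.4 to 26.4%), 5.27% of artery ECs and 0.736% of capillary ECs, while 3 of 317 neutrophil-gated cells did (0.946%, exact interval 0.196 to 2.74%). The capillary share lies inside that interval, which these few cells leave wide, so it was not told apart from the level in cells that should lack the gene. Unthinned, the shares were 40.5%, 11.8% and 2.03%.

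In artery ECs Vwf measured 61.2 and 91.5 CPM under NC against 24.4 and 55.9 CPM under HFpEF. Capillary ECs gave 11.9 and 9.86 CPM under NC against 4.6 and 8.23 CPM under HFpEF. Vein ECs gave 505.8 and 520.3 CPM under NC against 281.1 and 496.7 CPM under HFpEF. In cluster 14 it measured 2553 and 2691 CPM under NC against 1111 and 1616 CPM under HFpEF. In each of these classes both HFpEF libraries were below both NC libraries, and HFpEF library 1 was the lowest. The log2 differences were -0.66 ± 0.25 (SE) in capillary, -0.74 ± 0.26 in artery and -0.33 ± 0.20 in vein ECs and -0.99 ± 0.20 in cluster 14. The adjusted p were 0.225, 0.250, 0.544 and 0.215, so none passed. The size depended on single libraries, the differences without HFpEF library 1 being -0.41, -0.45, -0.04 and -0.77. In artery ECs the difference was -0.40 without NC library 2. Without HFpEF library 2 they were -1.21, -1.60, -0.79 and -1.31, and those in artery ECs and cluster 14 then passed, with edgeR adjusted p of 0.0335 and 0.00926. Within artery ECs, Vwf lay mostly in cluster 13, led by Mgp, Mt1 and Clu, at 204 ± 101 CPM (SD, n = 4), against 31.2 ± 14.2 in the larger cluster 5, led by Fbln5 and Tgfb2. Cluster 13 held 101 of 972 and 192 of 947 artery ECs under NC against 76 of 421 and 340 of 1779 under HFpEF. Outside the EC classes, neutrophil-gated cells gave 51.6 and 26.6 CPM of Vwf under NC against 0 and 6.02 CPM under HFpEF, on 0 to 14 UMIs per library. Cells left without a class gave 50.7 and 37.7 CPM under NC against 9.40 and 21.0 CPM under HFpEF. In pericyte-gated cells the diets overlapped. Whether Vwf RNA from other cells has a part in the capillary difference was not tested.

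Plat, tissue plasminogen activator, lies at chr8:22757727-22782844 on the + strand with 14 exons and was highest in artery ECs in 4 of 4 libraries. Artery ECs measured 253.0 and 230.7 CPM under NC against 273.0 and 268.2 CPM under HFpEF. Capillary ECs measured 87.0 and 80.0 CPM under NC against 84.1 and 108.8 CPM under HFpEF, and vein ECs 72.2 and 54.7 CPM under NC against 65.3 and 98.4 CPM under HFpEF. The HFpEF libraries were both above NC in artery ECs and overlapped NC in the other classes. The level in artery ECs was 2.84-fold that in capillary ECs and 3.57-fold that in vein ECs, as mean ratios over 4 libraries. After thinning to 1000 UMIs, 20.9% of 3967 artery ECs held a Plat UMI (19.7 to 22.2%), against 8.37% of capillary and 7.07% of vein ECs, and 48.5%, 19.9% and 20.4% unthinned. Fibroblast-gated cells held one in 11.9% of 118 cells (6.64 to 19.1%) and neutrophil-gated cells in 4.42% of 317 (2.44 to 7.30%). The capillary and vein shares lie between these, and whether the Plat UMIs of the fibroblast-gated cells are their own was not tested. The log2 differences between diets were 0.22 ± 0.13 (SE) in capillary, 0.18 ± 0.12 in artery and 0.48 ± 0.20 in vein ECs, with adjusted p of 0.415, 0.545 and 0.366. In vein ECs the difference was 0.12 without HFpEF library 2. Cluster 14 measured 163.6 and 106.4 CPM under NC against 138.8 and 197.5 CPM under HFpEF, with a log2 difference of 0.34 ± 0.35 and an adjusted p of 0.892. In capillary ECs the Plat difference was -0.16 when every cluster was given the same share in each library.

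Plaur, the urokinase receptor, lies at chr7:24462484-24475968 on the + strand with 7 exons, just after the window with the TGACTCA letters shown above. In capillary ECs it measured 67.8 and 56.2 CPM under NC against 105.8 and 146.1 CPM under HFpEF, on 782 to 4561 UMIs per library. Artery ECs gave 57.3 and 34.3 CPM under NC against 95.7 and 89.9 CPM under HFpEF. Vein ECs gave 106.2 and 62.9 CPM under NC against 157.3 and 164.9 CPM under HFpEF. Both HFpEF libraries were above both NC libraries in each class, and NC library 2 was the lowest throughout. Plaur rose in vein ECs, by a log2 difference of 0.97 ± 0.20 (SE, 95% interval 0.54 to 1.4) with an edgeR adjusted p of 0.0278. The capillary difference of 1.04 ± 0.16 (0.66 to 1.42) and the artery difference of 1.03 ± 0.21 (0.57 to 1.48) had adjusted p of 0.0826 and 0.0609. In capillary ECs Plaur had rank 39 by p among 12319 genes, of which 1 was called. Cluster 14 held 13 to 24 Plaur UMIs per library, at 77.0 and 43.2 CPM under NC against 225.6 and 51.6 CPM under HFpEF, which overlapped. Its log2 difference of 0.51 ± 0.61 there turned to -0.29 without HFpEF library 1.

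The vein call rested on NC library 2, since without it the log2 difference was 0.64 with an adjusted p of 0.226. It was also lost with DESeq2 (adjusted p 0.0806), with cells of over 500 genes and under 10% mitochondrial UMIs (0.0879), at clustering resolution 1.2 (0.0596), with the 9 genes kept among the clustering genes (0.0755) and with a gate on each cell's own marker UMIs (0.73, 0.716). In capillary ECs Plaur passed in 11 of 19 other settings, and in artery ECs it passed in 7 of 15. Of the capillary passes 10 were in planned settings, the other being the fit without cluster 4, which was chosen after seeing the data. The settings share the same libraries, and several in which it passed called more of all genes. In capillary ECs 628 of 18310 genes were called without the filter on low counts and 258 of 12069 at clustering resolution 0.5. DESeq2 called 212 of 10169 there, against 1 of 12319 in the main fit. The Plaur difference was positive in each of the other settings, between 0.74 and 1.4 in capillary ECs, 0.70 and 1.44 in artery ECs and 0.64 and 1.39 in vein ECs. Over the 4 classes together Plaur measured 60.8 ± 11.5 CPM in NC and 123.8 ± 21.2 in HFpEF (SD, n = 2), a log2 difference of 1.04 with an adjusted p of 0.0946, beside 0.0776% of genes called by edgeR. DESeq2 called Plaur there, 1 of the 9 genes, beside 2.5% of the 11135 genes to which it gave an adjusted p.

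The share of capillary ECs with a Plaur UMI, after thinning to 1000 UMIs, was 5.50% and 4.28% in NC and 8.85% and 10.9% in HFpEF. Thinning left out 65 and 45 shallower capillary ECs in NC and 274 and 1639 in HFpEF, so the libraries were trimmed unequally. Vein ECs gave 8.42% and 4.56% in NC and 10.9% and 12.1% in HFpEF. The intervals of the NC and HFpEF capillary libraries did not overlap, the highest NC bound being 6.19% and the lowest HFpEF bound 7.91%. In vein ECs they did overlap, at 5.83 to 11.7% in NC library 1 and 7.12 to 15.8% in HFpEF library 1. These intervals count cells and leave out the variation between libraries, so they are no test of the diets. Unthinned, the capillary shares were 17.6% and 14.8% in NC and 15.1% and 20.2% in HFpEF, in libraries with median depths of 3819 and 4163.5 against 1871 and 1971 UMIs among the thinned cells. Fibroblast-gated cells held a Plaur UMI in 0 of 118 thinned cells, which allows a share of up to 3.08%, and in 2.36% of 127 cells unthinned.

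Capillary ECs fell into 9 clusters, and Plaur was higher in both HFpEF libraries than in both NC libraries in 9 of 9. Over all 12319 genes tested in capillary ECs, 0.3% did the same. The clusters of a library share its mice and its handling, so they are not independent replicates. The ratio of the HFpEF mean to the NC mean ran from 1.30 in cluster 7, led by Slc5a3 and Nabp1, to 4.62 in cluster 12, led by the interferon-induced Ifit genes. Cluster 12 held 5 and 11 Plaur UMIs under NC. The highest level was in cluster 11, led by Pgf, Ccl2 and Apln, at 150.6 and 177.1 CPM under NC against 291.0 and 259.9 CPM under HFpEF. Cluster 4, led by Cxcl10, Cxcl2, Adamts4, Neurl3 and Plaur itself, had 125.1 and 120.3 CPM under NC against 213.5 and 252.6 CPM under HFpEF. The lowest was cluster 8, with 18.3 and 10.2 CPM under NC against 25.3 and 30.8 CPM under HFpEF, so that clusters 11 and 8 differed 10.4-fold in the mean of 4 libraries.

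**Figure D3:**
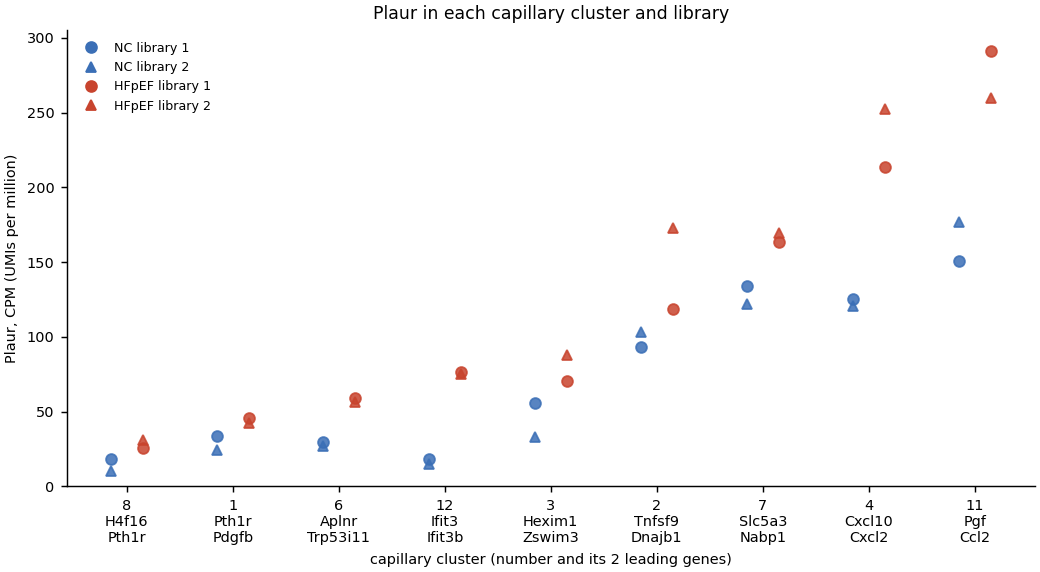
Plaur level in CPM in each of the 9 capillary clusters, ordered by the mean of 4 libraries, with circles for library 1 and triangles for library 2, blue for NC and red for HFpEF. Both red points lie above both blue points in each cluster, and the level spans 10.4-fold from cluster 8 to cluster 11.

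The clusters took different shares of the capillary ECs in the 2 diets. Cluster 2, led by Dnajb1, Hspa1b and other heat shock genes, held 3.58 and 3.01% of capillary ECs in NC and 25.8 and 26.6% in HFpEF, and cluster 4 held 19.2 and 17.9% in NC and 8.04 and 11.1% in HFpEF. With every cluster given the same share in each library, the capillary Plaur difference was 0.74 with an adjusted p of 0.0650. Without cluster 2 it was 0.97 (0.104), and without cluster 4 it was 1.4 (0.0388). Plaur is itself a leading gene of cluster 4, which took a larger share in NC, so leaving that cluster out is not independent of the Plaur level. Over the whole heat shock list the summed level in capillary ECs was 10622 and 7076 CPM under NC against 17205 and 19858 CPM under HFpEF, higher in both HFpEF libraries as Plaur was. All 8 heat shock genes were tested and 0 passed in capillary ECs by edgeR (7 at an unadjusted p under 0.05, 5 by DESeq2). By edgeR 5 rose in artery and 6 in vein ECs, where DESeq2 called 3 and 2, so the order of the classes differed between the tools. The edgeR calls in vein ECs were Hspa1a, Hspa1b, Hsp90aa1, Hspd1, Hspe1 and Hsph1, by log2 differences of 0.91 for Hspe1 to 1.74 for Hsph1, and in artery ECs the same genes without Hsp90aa1. The part of the heat shock genes, of the clusters' shares and of the lower depth of the HFpEF libraries in the Plaur result was not tested beyond these values.

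Klf2, a flow-induced transcription factor, lies at chr8:72319033-72321656 on the + strand with 3 exons. In capillary ECs it measured 3530 and 2959 CPM under NC against 2990 and 2254 CPM under HFpEF. In artery ECs it measured 3651 and 3565 CPM under NC against 3312 and 2582 CPM under HFpEF, and in vein ECs 3650 and 3215 CPM under NC against 3162 and 2565 CPM under HFpEF. HFpEF library 2 was the lowest in each class, and both HFpEF libraries were below NC in artery and vein ECs, while in capillary ECs HFpEF library 1 lay inside the NC range. The log2 differences were -0.30 ± 0.18 (SE, 95% interval -0.71 to 0.12) in capillary, -0.27 ± 0.16 (-0.62 to 0.08) in artery and -0.22 ± 0.20 (-0.64 to 0.20) in vein ECs. None passed, with adjusted p of 0.415, 0.493 and 0.714. The difference was negative in every setting tried, between -0.54 and -0.09 in capillary ECs. It was -0.09, -0.08 and -0.04 in the 3 classes without HFpEF library 2.

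Klf4, its close relative, lies at chr4:55527143-55532466 on the - strand with 5 exons. It measured 2711 and 2024 CPM under NC against 2580 and 2194 CPM under HFpEF in capillary ECs. Artery ECs gave 2780 and 2307 CPM under NC against 3110 and 2521 CPM under HFpEF, and vein ECs 3166 and 2412 CPM under NC against 3398 and 2644 CPM under HFpEF. The diets overlapped in all 3 classes. In each class and diet library 1 measured more than library 2. The log2 differences were 0.02 ± 0.17, 0.17 ± 0.16 and 0.16 ± 0.21 (SE), with adjusted p of 0.960, 0.699 and 0.824. In cluster 14 both genes were at their lowest level, Klf2 at 1702 ± 333 CPM and Klf4 at 1521 ± 214 CPM (SD, n = 4), below each other class in 4 of 4 libraries. Klf2 measured 2933 ± 523, 3278 ± 486 and 3148 ± 446 CPM in capillary, artery and vein ECs, with overlapping SDs. Within libraries, however, Klf2 was lower in capillary ECs than in artery and in vein ECs in 4 of 4, the mean log2 ratio being 0.17 ± 0.09 for artery to capillary ECs and -0.11 ± 0.06 for capillary to vein ECs (SD). Between the diets, Klf2 in cluster 14 measured 2049.5 and 1773 CPM under NC against 1249 and 1738 CPM under HFpEF, a log2 difference of -0.41 ± 0.21 (SE, adjusted p 0.773) with no overlap. Klf4 measured 1623 and 1201 CPM under NC against 1648.5 and 1613 CPM under HFpEF there, a difference of 0.13 ± 0.20 (adjusted p 0.940) with overlap.

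Within the capillary ECs, Klf2, Klf4 and Thbd had their lowest mean over the 4 libraries in the same cluster, cluster 11, where the Plaur mean was highest. Klf2 was 1466 ± 193 CPM there and 3541 ± 719 in cluster 7, where it was highest (SD, n = 4). Klf4 was 1063 ± 363 against 3424 ± 497 CPM, and Thbd 105 ± 24 against 365 ± 76 CPM, in the same pair of clusters. Cluster 7 was the highest of the 9 in 3 of 4 libraries for Klf2 and for Klf4 and in 2 of 4 for Thbd. Cluster 7 cells had a median of 1272 UMIs and cluster 11 cells 2450. Cluster 7 also held the highest Plat level, 206 ± 65 CPM, with the lowest in the Aplnr-led cluster 6, 63.6 ± 10.4 CPM.

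**Figure D4:**
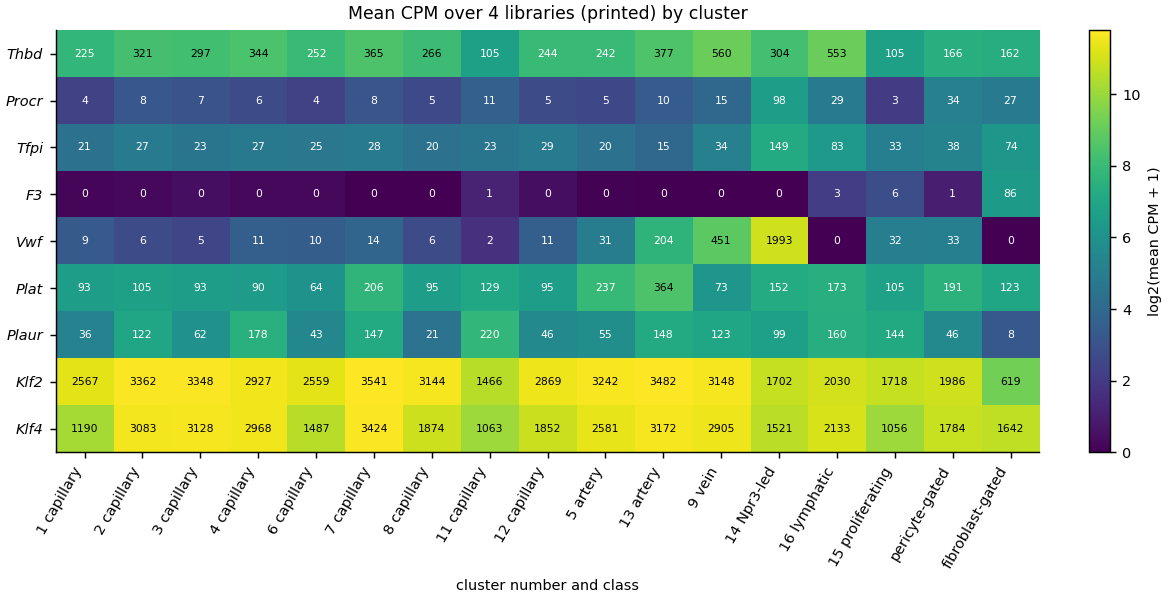
Mean level over 4 libraries of the 9 genes (rows) in 15 EC clusters and in pericyte-gated and fibroblast-gated cells (columns). Colour is log2(CPM + 1) and the printed value is the mean CPM. Vwf is concentrated in clusters 9, 13 and 14, F3 in the fibroblast-gated cells, and Klf2, Klf4 and Thbd are low in cluster 11.

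Whether the diet difference itself varied between vessel classes was tested by the class and diet interaction in edgeR, with the library as a block. No gene of the group was called, beside 0.175% of genes for artery against capillary ECs, 0.0445% for vein against capillary and 0.068% for vein against artery. For Plaur the log2 change in artery minus that in capillary ECs was -0.09, vein minus capillary -0.13 and vein minus artery -0.053. The smallest unadjusted p were for Vwf, whose HFpEF difference was less negative in vein ECs by 0.38 against capillary ECs (p 0.023, adjusted p 0.958) and by 0.45 against artery ECs (p 0.020, adjusted p 1). A call in vein ECs and not in the other classes is therefore not shown to be a difference between classes.

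The other genes of the same pathways, from lists of the wider clotting and flow-sensing systems, mostly did not pass. Of 27 further clotting and anticoagulant genes, 11 were tested in capillary, 8 in artery and 5 in vein ECs, and edgeR called 0 in each, with 4, 2 and 1 at an unadjusted p under 0.05. DESeq2 called 1 of them, the thrombin receptor F2r in capillary ECs, which measured 67.6 and 65.4 CPM under NC against 93.3 and 114.4 CPM under HFpEF (edgeR log2 difference 0.66 ± 0.12, adjusted p 0.0984). Both HFpEF libraries were above NC for F2r. Gas6, a vitamin K-dependent ligand, measured 255.3 and 261.9 CPM under NC against 213.6 and 203.1 CPM under HFpEF, and Anxa5, which covers exposed phosphatidylserine, 415.1 and 392.0 against 343.8 and 409.4 CPM, in capillary ECs. The median log2 difference of the tested genes of this list was -0.09, 0.07 and 0.25 in the 3 classes.

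Of 13 further fibrinolysis genes, 8, 4 and 6 were tested and edgeR and DESeq2 called 0, with 3, 0 and 0 at an unadjusted p under 0.05. S100a10, which with Anxa2 forms a plasminogen receptor, measured 785.2 and 675.2 CPM under NC against 567.3 and 537.0 CPM under HFpEF, a log2 difference of -0.39 ± 0.12 (adjusted p 0.179). Anxa2 itself overlapped between the diets, at 392.7 and 325.7 CPM against 277.9 and 340.1 CPM, and so did the plasminogen receptor Plgrkt, at 55.1 and 71.4 against 57.9 and 51.7 CPM. Of these 3 genes, S100a10 had both HFpEF libraries below both NC libraries.

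Of 11 genes of Weibel-Palade bodies and Vwf handling, 9, 9 and 8 were tested, and both tools called 0, with 2 at an unadjusted p under 0.05 in each class. Rab3d, a GTPase of these granules, measured 32.1 and 31.5 CPM under NC against 26.0 and 24.2 CPM under HFpEF in capillary ECs and 44.6 and 39.9 against 25.1 and 25.4 CPM in vein ECs. Its log2 difference in vein ECs was -0.71 ± 0.23, with an adjusted p of 0.201. The release protein Stx4a and the matrix protein Mmrn2 had log2 differences of -0.19 and 0.11 in capillary ECs.

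Klf2 and Klf4 are known to raise Nos3, Aqp1, Timp3 and other genes and to lower adhesion and contraction genes. Of the 8 listed as raised, 8, 7 and 7 were tested and edgeR called 0, with 3, 1 and 1 at an unadjusted p under 0.05. DESeq2 called Eln and Aqp1 lower in capillary ECs. Aqp1, a water channel, measured 2046 and 2128 CPM under NC against 1529 and 1140 CPM under HFpEF in capillary ECs, while Timp3 and Heg1 had log2 differences of -0.12 and 0.09. Of the 6 listed as repressed, 5, 4 and 5 were tested, and edgeR called 1, Sele in vein ECs, with 2, 0 and 1 at an unadjusted p under 0.05. Sele, or E-selectin, rose by a log2 difference of 1.49 ± 0.29 (adjusted p 0.0178), from 52.0 and 24.6 CPM in NC to 63.6 and 130.6 CPM in HFpEF. DESeq2 called 0 genes of this list in vein ECs. Vcam1 measured 384.3 and 348.5 CPM under NC against 445.1 and 437.4 CPM under HFpEF in vein ECs (adjusted p 0.467), and Angpt2 had a log2 difference of 0.06 in capillary ECs.

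Upstream of Klf2 and Klf4, all 10 genes of the ERK5 and CCM pathway were tested in each class and both tools called 0, with 1, 0 and 0 at an unadjusted p under 0.05. The Mef2 letters in the Klf2 window do not tell Mef2c from Mef2a. In capillary ECs Mef2c measured 266.0 and 274.7 CPM under NC against 299.1 and 317.5 CPM under HFpEF. Mef2a measured 231.4 and 205.7 against 221.6 and 251.6 CPM, and Pdcd10 had a log2 difference of 0.09 in capillary ECs. Of 11 other Klf genes, 11, 11 and 10 were tested and edgeR called 0, with 3, 3 and 1 at an unadjusted p under 0.05, and DESeq2 called Klf15 lower in capillary ECs. Klf6, Klf7 and Klf9 had log2 differences of 0.08, 0.04 and -0.43 there.

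The AP-1 genes are among the immediate early genes, which dissociation of tissue is also known to induce. All 17 listed were tested in each class, and edgeR called 0 in capillary ECs, 0 in artery ECs and 1 in vein ECs, with 4, 5 and 3 at an unadjusted p under 0.05. The called gene, Fosl1, rose by a log2 difference of 1.89 ± 0.41 (edgeR adjusted p 0.0345). Its level in vein ECs was low, at 4.25 and 5.47 CPM under NC against 23.4 and 15.9 CPM under HFpEF. DESeq2 called 0 of the list in vein ECs and Fosl1, Fosl2 and Egr3 in capillary ECs, all higher in HFpEF. Jun, Junb and Fos, the most abundant, had log2 differences of -0.05, -0.10 and 0.03 in capillary ECs. The summed level of the list was similar in the diets, 27536 and 25973 CPM under NC against 27234 and 24704 CPM under HFpEF.

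Markers of other cell types were not level across libraries in the capillary ECs, and the hemoglobin genes were not low there. The 6 pericyte markers summed to 142.3 and 142.5 CPM under NC against 185.2 and 114.2 CPM under HFpEF. The 4 cardiomyocyte markers summed to 51.1 and 31.2 CPM under NC against 134.9 and 49.7 CPM under HFpEF, and the 4 hemoglobin genes to 522.4 and 323.3 against 427.7 and 2226 CPM. The 6 platelet markers, of interest beside the clotting genes, summed to 12.2 and 13.5 against 9.61 and 12.4 CPM. Leaving out cells with 1% or more hemoglobin UMIs left the Plaur difference at 1.03 in capillary ECs (adjusted p 0.0871) and 0.96 in vein ECs (0.0275). The part of the other markers in the results was not tested. A lower summed count of a gene cannot be told apart here between fewer cells expressing it and less RNA per cell.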

How the data were processed

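Single-cell RNA libraries (10x Genomics 3′ v3) of RFP-positive left ventricular cells were sequenced from 2 NC and 2 HFpEF samples. The authors cleaned reads with fastp and aligned and counted them with Cell Ranger 5.0.1 against mm10 with Ensembl 100 genes. The paper reports downsampling by mapped barcoded reads per cell on the way to an aggregated matrix. The deposit holds 1 matrix of UMI counts per sample. Whether these matrices were downsampled, or cells or genes filtered before deposit, is not given in the sources used here. The depth per cell was not equal between them, as given above. Diet came from the sample labels. The deposited counts were whole and not normalized, with 30387717, 31517933, 11163876 and 48003732 UMIs in NC libraries 1 and 2 and HFpEF libraries 1 and 2. That depth, and the number of cells, gives HFpEF library 1 the least precise values.

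Cells with more than 200 genes and under 20% mitochondrial UMIs were kept. Libraries shared 10 to 42 cell barcodes, and doublets were kept in the main classes (scores of Scrublet in scanpy 1.11.5 removed 238 to 3488 cells per library in an alternative). Cells were clustered by Louvain in python-igraph 0.11.9 at resolution 0.8 on 2000 variable genes and 10 principal components. The 9 genes, mitochondrial and hemoglobin genes were left out, and clusters were gated by lists of marker genes. Counts were summed per class and library, since cells are not replicates, and tested with edgeR 4.0.16 (TMM scaling, filterByExpr, quasi-likelihood, diet as the only factor, Benjamini-Hochberg over all genes tested, two-sided, call at an adjusted p under 0.05). CPM are plain UMIs per 1000000 UMIs of the class. Ratios between classes are on the log2(CPM + 1) scale. The interaction test added class and library as a block. Alternatives were DESeq2 1.42.0, other size factors, filters, clusterings and gates, and leaving out each library. The edgeR script was tested on simulated data made from the capillary counts, where it recovered 140 of 200 genes changed by a log2 difference of 1 and 188 of 200 changed by 2. False calls were 23 of 163 and 14 of 202 calls.

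Gene positions come from GENCODE on GRCm38, the assembly of mm10, and promoters from RefSeq on GRCm38.p6, with windows for 6 of the 9 genes. The 9 genes and all gene and marker lists were chosen with earlier results of these data known. The text names all 9 genes in every class and, of each further list, the genes that edgeR called and the 3 of highest level among those tested in capillary ECs. Eln, Klf15, Fosl2 and Egr3, called by DESeq2 alone, are named outside this rule, after their values were seen. Some genes of the lists are not reported here. The likeness named in the closing section is Pearson's correlation over 16 class and library sums.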

Additional observations from a re-analysis of the deposited data

Results flagged for a closer look

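Cells outside the EC classes were also sorted, and results in them are given here because they lie outside the comparisons above. Plaur and Tfpi in pericyte-gated cells were picked by a rule, namely 20 UMIs or more per library and both HFpEF libraries above both NC libraries. Their lack of overlap is that rule and no separate result. Genes lower in HFpEF were not picked, though Klf2 in neutrophil-gated cells measured 2301 and 1767 CPM under NC against 1386.5 and 1387 CPM under HFpEF. The share of all genes without overlap in pericyte-gated cells was not computed. In the 1594 pericyte-gated cells, whose pan-endothelial markers summed to 2203 to 2666 CPM against 4356 to 5154 CPM in capillary ECs, Plaur measured 37.2 and 18.2 CPM under NC against 60.8 and 67.6 CPM under HFpEF, on 44 UMIs or more per library. Its ratio of the HFpEF mean to the NC mean was 2.32, and its lowest HFpEF value was above its highest NC value. In the same cells Tfpi measured 31.8 and 35.6 CPM under NC against 47.3 and 38.3 CPM under HFpEF, a ratio of 1.27 on 35 UMIs or more per library, again without overlap. Neither was tested.

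F3, nearly absent from ECs, had 43 UMIs in the 127 fibroblast-gated cells, at 39.4 and 133.9 CPM under NC against 113.2 and 58.4 CPM under HFpEF, so that the diets overlapped. After thinning to 1000 UMIs, 7.63% of 118 such cells held an F3 UMI (95% exact binomial interval 3.55 to 14%), and 21.3% of 127 unthinned. These cells were sorted as RFP-positive, and the way they came to be among the sorted cells was not tested. No test for a library standing apart within a diet was possible with 2 libraries per diet.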

How the results depend on the processing

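With the settings used above, edgeR called 1 gene in capillary ECs, 50 in artery ECs, 82 in vein ECs, 1 in endocardial-gated cells (cluster 14) and 10 over the 4 classes, and 20, 5 and 7 genes for the interaction of class and diet. Over all results and alternatives, 641 stayed the same. For a log2 difference this means that it kept its sign and its side of the threshold. For a count or share it means that it stayed within the limit set for it. Of the rest, 43 differences turned in sign, 115 counts or shares moved by more than their limit, and 38 log2 differences crossed the threshold. The differences of Klf2 kept their sign under every alternative run, as did those of Plaur outside cluster 14. What turned in sign were differences that had not passed the test in any setting except Procr in cluster 14, and the cause was not tested. Not all were small, since in vein ECs Procr went from -0.48 to 0.17 and Tfpi from 0.21 to -0.47. With DESeq2, the called genes numbered 212 in capillary ECs, 23 in vein ECs, 5 in endocardial-gated cells and 278 over the 4 classes, and the calls among the 9 genes 1 in capillary ECs, 1 in artery ECs, 0 in vein ECs and 1 over the 4 classes. The log2 difference of Plaur passed at 1.04 in capillary ECs, 1.03 in artery ECs and 1.05 over the 4 classes and missed the threshold at 0.97 in vein ECs. Without the filter on low counts, the called genes numbered 628 in capillary ECs, 343 in artery ECs, 213 in vein ECs, 49 in endocardial-gated cells and 923 over the 4 classes, the calls among the 9 genes 1 in capillary ECs, 2 in artery ECs, 1 in endocardial-gated cells and 2 over the 4 classes and interaction calls 62 for artery against capillary, 31 for vein against capillary and 18 for vein against artery. Plaur passed at a log2 difference of 1.02 in capillary ECs, 1.01 in artery ECs and 1.03 over the 4 classes. With cells of over 500 genes and under 10% mitochondrial UMIs, the called genes numbered 48 in capillary ECs, 2 in endocardial-gated cells and 20 over the 4 classes, and the calls among the 9 genes 1 in capillary ECs and 0 in vein ECs. The log2 difference of Plaur passed at 1.04 in capillary ECs, missed the threshold at 0.86 in vein ECs, and the sign turned for Thbd -0.0030 in capillary ECs and Thbd 0.028 in vein ECs. With the gate on each cell's marker UMIs, the called genes numbered 6 in capillary ECs, 4 in artery ECs, 3 in vein ECs, 0 in endocardial-gated cells and 1 over the 4 classes, the calls among the 9 genes 0 in vein ECs and interaction calls 6 for artery against capillary, 14 for vein against capillary and 2 for vein against artery. Plaur missed the threshold at 0.73 in vein ECs, and the sign turned for Thbd -0.025 in capillary ECs, Thbd 0.63 in endocardial-gated cells, Procr -0.14 in artery ECs, Procr 0.17 in vein ECs, Tfpi -0.47 in vein ECs and Klf4 -0.18 in endocardial-gated cells. At clustering resolution 0.5, the called genes numbered 258 in capillary ECs, 25 in endocardial-gated cells and 54 over the 4 classes, and the calls among the 9 genes 1 in capillary ECs and 1 in artery ECs. Plaur passed at a log2 difference of 1.03 in capillary ECs and 1.06 in artery ECs, and the sign turned for Klf4 -0.016 in vein ECs. At clustering resolution 1.2, the called genes numbered 27 in capillary ECs, 22 in artery ECs and 25 in endocardial-gated cells and the calls among the 9 genes 1 in capillary ECs and 0 in vein ECs. The log2 difference of Plaur passed at 1.17 in capillary ECs, missed the threshold at 0.93 in vein ECs, and the sign turned for Thbd 0.083 in vein ECs. With the 9 genes kept for clustering, the called genes numbered 11 in capillary ECs and the calls among the 9 genes 0 in vein ECs. Plaur missed the threshold at 0.83 in vein ECs, and the sign turned for Thbd 0.052 in vein ECs and Vwf 0.035 in vein ECs. With the cells left without a class counted as capillary, the called genes numbered 8 in capillary ECs. Without the Cxcl10-led cluster 4, the called genes numbered 39 in capillary ECs and the calls among the 9 genes 1 in capillary ECs. Plaur passed at a log2 difference of 1.4 in capillary ECs. Without doublet calls, the called genes numbered 21 in artery ECs, 0 in endocardial-gated cells and 6 over the 4 classes. The sign turned for Thbd 0.018 in vein ECs and Plat -0.29 in endocardial-gated cells. Without the heat shock-led cluster 2, the sign turned for Thbd -0.037 in capillary ECs and Klf4 -0.10 in capillary ECs. With equal cluster shares, the sign turned for Plat -0.16 in capillary ECs. The gate on each cell's marker UMIs left too few endocardial cells for Plaur and some other genes to be tested, and clustering with the 9 genes kept gave no endocardial class, so these have no value. The cells left without a class, the heat shock-led cluster, the Cxcl10-led cluster and the equal cluster shares are alternatives chosen after seeing the data. Thinning to 500 UMIs or not thinning moved the shares of cells with a UMI along with depth.

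Leaving out each library in turn, the genes called ranged from 35 to 428 in capillary ECs, 31 to 335 in artery ECs, 86 to 211 in vein ECs, 0 to 51 in endocardial-gated cells and 4 to 293 over the 4 classes. Calls among the 9 genes were 1 in capillary ECs and 1 in artery ECs each time and ranged from 0 to 1 in vein ECs, 0 to 2 in endocardial-gated cells and 0 to 2 over the 4 classes, and interaction calls from 18 to 55 for artery against capillary, 2 to 31 for vein against capillary and 10 to 28 for vein against artery. The log2 difference of Plaur ranged from 0.80 to 1.23 in capillary ECs, 0.70 to 1.44 in artery ECs, 0.64 to 1.39 in vein ECs, -0.29 to 1.82 in endocardial-gated cells and 0.86 to 1.26 over the 4 classes. The difference of Thbd ranged from -0.24 to 0.34 in capillary ECs, -0.11 to 0.49 in artery ECs, -0.24 to 0.25 in vein ECs, -0.57 to 0.37 in endocardial-gated cells and -0.23 to 0.36 over the 4 classes, that of Klf4 from -0.18 to 0.25 in capillary ECs, -0.012 to 0.33 in artery ECs, -0.073 to 0.36 in vein ECs, -0.072 to 0.35 in endocardial-gated cells and -0.14 to 0.27 over the 4 classes and that of Procr from -0.86 to 0.057 in vein ECs, -0.27 to 2.42 in endocardial-gated cells and -0.28 to 0.083 over the 4 classes. The difference of Tfpi ranged from -0.072 to 0.55 in vein ECs and that of Plat from -0.037 to 0.67 in endocardial-gated cells and -0.022 to 0.26 over the 4 classes.

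Libraries of both diets carry the numbers 1 and 2. Over all genes, same-numbered libraries did not deviate together, the correlation of their deviations from the diet means being -0.0011 in capillary, -0.0024 in artery and -0.021 in vein ECs. A correlation over all genes cannot show whether some genes run with the library number, so a pairing is not excluded. Scarb1 and, in each class, Klf4 were higher in library 1 than in library 2 of both diets. So was Klf2 in capillary, artery and vein ECs, but not in cluster 14 under HFpEF. The labels do not say what the numbers stand for. With the library number as a replicate block, the called genes numbered 127 in capillary ECs, 287 in artery ECs, 13 in endocardial-gated cells and 123 over the 4 classes, and the calls among the 9 genes 1 in capillary ECs, 2 in artery ECs, 1 in endocardial-gated cells and 1 over the 4 classes. The log2 difference of Plaur passed at 1.03 in capillary ECs, 1.11 in artery ECs and 1.05 over the 4 classes, and the sign turned for Thbd 0.0090 in vein ECs. The Plaur adjusted p with the block were 0.0215 in capillary, 1.84e-07 in artery and 0.00321 in vein ECs, and Vwf passed in artery ECs (-0.89) and in cluster 14 (-1.03).

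Each diet had 2 libraries, and a simulation of the capillary comparison over 12319 genes with 200 genes changed by a log2 difference of 1 recovered 140 of them, with 23 false calls among 163. A missed threshold therefore does not show that a gene was level, and a single call does not show that it changed. Depth limits F3, and Procr in artery and vein ECs and cluster 14, which rest on few UMIs per library. With 1 library left out, the lone library of a diet is assumed to vary like the others.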

Other observations

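Over the 16 sums of 4 classes and 4 libraries, the genes whose log2(CPM + 1) followed each of the clotting and flow genes most closely, among 8054 genes with a mean of 10 CPM or more, are given as a description. The sums share libraries and depth, so r describes these sums alone. Vwf was followed by Pdlim4 (r = 0.98) and Vcam1 (0.98), Thbd by Sema3f (0.93) and Mustn1 (0.91), and Klf4 by Klf7 (0.95) and Jund (0.93). Klf2 was followed by Brd9 (0.94) and Slc9a3r2 (0.94), and Plat by Nudt4 (0.92) and Azin1 (0.91). For Plaur, whose closest genes were Zfp36l2 (0.89) and Serpinh1 (0.88), r was the lowest of the group. Procr was followed by Arhgap32 (0.96) and Acp2 (0.96), and Tfpi by Rpsa (0.98) and Reck (0.98).

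The 100 lymphatic-gated cells held Thbd at 552.6 ± 135.5 CPM (SD, n = 4), Klf2 at 2030 ± 604 CPM and Klf4 at 2133 ± 321 CPM, and 0 UMIs of Vwf. The 170 proliferating cells held Thbd at 104.7 ± 30.0 CPM and Klf4 at 1056 ± 152 CPM.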
